A study of Mus musculus with 24 samples.

Results

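The SLC25 carriers are transport proteins encoded in the nucleus, most of them in the inner mitochondrial membrane, that move metabolites between the cytosol and the mitochondrial matrix. Members were taken by symbol, as every gene whose name is Slc25a followed by a number, which gave 44 of the 37041 genes listed. The data are mRNA sequencing levels in 24 libraries, in 8 groups of 3. Of these, 18 libraries are from C2C12, a mouse myoblast line, either expressing the nuclear factor I protein NFIA, a DNA-binding regulator of transcription, or control. They were taken at day 0, day 7 and day 7 following 10 µM forskolin for 4 h. Forskolin activates adenylyl cyclase and so raises cAMP. The other 6 libraries are from brown adipose tissue of neonatal mice, labelled NFIA-KO or wild type. The vector that carries NFIA, the culture medium, the mutant allele, and whether tissue of several neonates was pooled are not stated by the labels. The comparisons address how NFIA bears on the genes of brown fat cells, and the carriers are described within them.

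Carriers of this family share a fold of repeated membrane-spanning units and most exchange one small molecule for another. The ADP/ATP and phosphate carriers feed ATP synthase, the citrate, dicarboxylate and oxoglutarate carriers link the citric acid cycle to the cytosol, and the carnitine/acylcarnitine carrier brings fatty acyl groups to beta-oxidation. In brown fat, fatty acid oxidation supplies the proton gradient that Ucp1 dissipates as heat. Ucp1, Ucp2 and Ucp3 belong to the same protein family but carry other symbols, and appear here only as context.

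Values are FPKM, fragments per kilobase of transcript scaled to the mapped fragments of the library, so levels of different genes can be set side by side. Depth is unknown, since the tables hold no counts. The libraries' FPKM summed to between 762822 and 1575522. Nfia itself was listed at 1252 to 1283 FPKM in NFIA cells and 0.26 to 1.17 FPKM in control cells at day 0. At day 7 it was 3189 to 3585 FPKM against 0.81 to 2.23 FPKM without forskolin. With forskolin it was 9232 to 10448 FPKM against 1.32 to 1.82 FPKM. In NFIA cells, Nfia RNA thus rose from day 0 to day 7 (log2 fold change 1.395 ± 0.20, SE, adjusted p = 2.5e-05, limma). It rose again with forskolin (1.56 ± 0.20, adjusted p = 2.8e-05). The part of these rises in the carrier differences was not tested. In the tissue, Nfia RNA was 39.4 to 44.6 FPKM in libraries labelled NFIA-KO and 24.3 to 32.8 FPKM in wild type, and so not lower in the libraries labelled as knockout. The labels do not state which part of the gene was deleted, so this level does not check the label. Markers of adipocytes (5 genes) summed to 22240 to 24410 FPKM in NFIA cells at day 7 and 3.31 to 8.66 FPKM in control cells. Most of the sum in NFIA cells was Fabp4, at 22390 FPKM on average. Adipoq, Plin1, Cidec and Lipe averaged 100.5 to 402.2 FPKM in NFIA cells and 0.03 to 1.943 FPKM in control cells. The sum of 8 skeletal muscle genes was 1004 to 1284 FPKM in NFIA cells and 6987 to 7494 FPKM in control cells. In such bulk samples, fewer cells of a type and less RNA per cell cannot be told apart. Of each C2C12 group, 1 library carries an earlier date in its column header than the other 2, and all tissue libraries carry the earlier date. What the date refers to is not stated. The labels do not say whether libraries of a group come from separate cultures or animals, so p-values measure the spread between these libraries, which may be technical.

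Of the 44 carriers, 35 reached 1 FPKM in at least 1 library of both the cells and the tissue. Another 5 stayed under 1 FPKM in all 24 libraries. These were Slc25a2, another ornithine carrier with a highest value of 0.41 FPKM, Slc25a21, the oxodicarboxylate carrier (0.33 FPKM), Slc25a31, the germ-cell ADP/ATP carrier (0.31 FPKM), Slc25a41, a relative of the Mg-ATP/phosphate carriers (0.01 FPKM), and Slc25a48 (0.74 FPKM). The highest values of Slc25a48 were all in NFIA cells, at 0.44, 0.54 and 0.66 FPKM at day 7 against 0 in every control library. Slc25a18, a glutamate carrier, and Slc25a47 reached 1 FPKM only in the tissue. Slc25a43 and Slc25a13, the aspartate/glutamate carrier also called citrin, reached it only in the cells, Slc25a13 only at day 0. A carrier was tested if it had at least 1 FPKM in at least 3 libraries of a fit, which left 37 in C2C12 cells and 37 in the tissue. In cells, Slc25a34 passed only through the NFIA libraries at day 7, so that it had to be higher there, Slc25a13 only through the libraries at day 0 and Slc25a23 only through those at day 7. Where a comparison runs between those groups, the values of these 3 genes are a description, with no test, although the counts of calls include them.

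The most abundant carriers in most groups were those of oxidative phosphorylation. Slc25a3, the phosphate carrier, stood first in 6 of the 8 groups. Of the ADP/ATP carriers, Slc25a5 had rank 2 by mean level in each group and Slc25a4 ranks 3 to 6. The groups not led by Slc25a3 were NFIA cells at day 7, where the dicarboxylate carrier Slc25a10 came first at 510.1 ± 109 FPKM (SD, n = 3), and wild-type tissue, where the carnitine/acylcarnitine carrier Slc25a20 came first at 604 ± 132 FPKM (SD, n = 3). The first place was not clear of the spread in either of these groups, nor for Slc25a3 in NFIA and control cells at day 0 and in the tissue labelled NFIA-KO, since the libraries of the leading gene overlapped those of Slc25a5. In the groups led by other genes, Slc25a5 was at 425 ± 42.1 FPKM in the NFIA cells and 544 ± 43.2 FPKM in the tissue. All carriers together summed to 2640 ± 365 FPKM in NFIA cells and 1435 ± 164 FPKM in control cells at day 7 (SD, n = 3 each). Slc25a10 made up 19.2 ± 1.58% of that sum in NFIA cells and 0.805 ± 0.0629% in control cells, while Slc25a3, Slc25a4 and Slc25a5 together made up 39.3 ± 1.44% in NFIA cells and 58.7 ± 0.436% in control cells. At day 0 the carriers summed to 1652 ± 137 FPKM in NFIA cells and 1566 ± 212 FPKM in control cells.

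**Figure D1:**
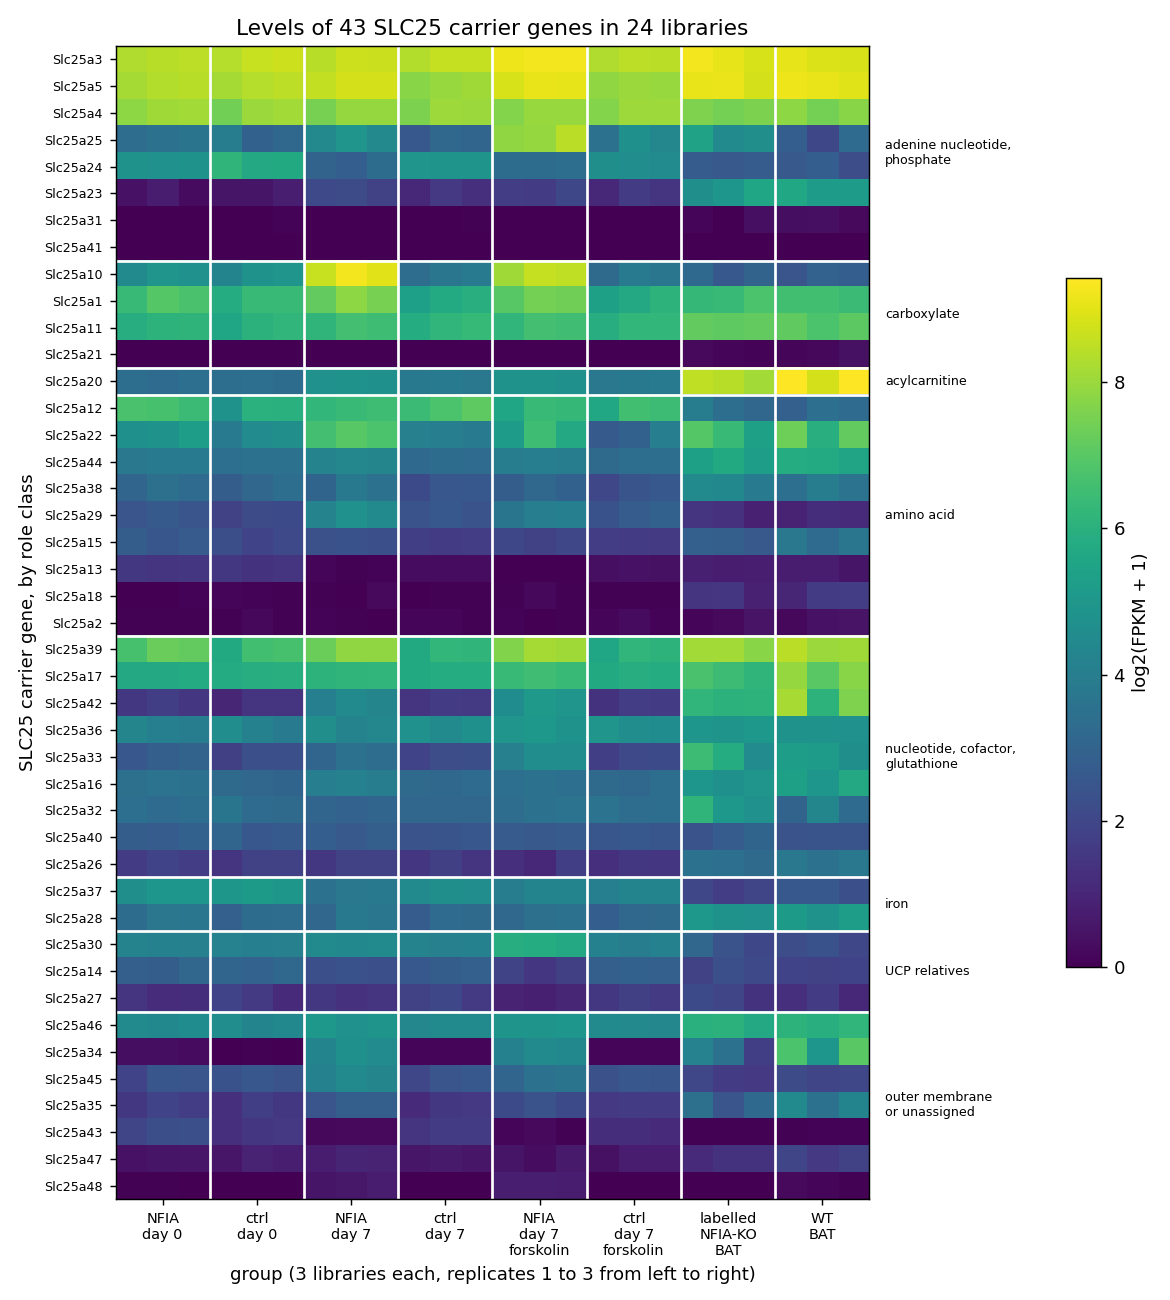
Each row is 1 of 43 carrier genes, grouped by role class, and each column 1 of the 24 libraries, with colour giving log2(FPKM + 1). Slc25a10 is brightest in the NFIA cells at day 7 with or without forskolin, Slc25a20 is brightest in the tissue, and 5 carriers stay dark throughout.

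At day 7, 28 of the 37 tested carriers differed between NFIA and control cells, against 55.5% of all genes tested. Of these, 23 were higher, against 26.1% of all genes tested, and 5 were lower, against 29.4% of all genes tested, by limma at an adjusted p under 0.05. The median log2 fold change was 0.654 over the tested carriers and -0.031 over all genes tested. With only the libraries of the later header date, 24 carriers were higher and 7 lower, against 4339 and 4997 of all 13997 genes tested. By role, more carriers were higher than lower in the carboxylate class (2 of 3 tested higher, 0 lower), the amino acid class (5 of 7 higher, 1 lower), the nucleotide, cofactor and glutathione class (7 of 10 higher, 0 lower) and the unassigned class (4 of 5 higher, 1 lower). Adenine nucleotide and phosphate carriers had 3 of 6 higher and 1 lower, relatives of the uncoupling proteins 1 of 3 higher and 1 lower, and the iron carriers 0 of 2 higher and 1 lower.

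Among the carboxylate carriers, Slc25a10 (chr11:120350720-120360501, mm9, a locus the tables give jointly with Gm11788) had 399, 616 and 516 FPKM in NFIA cells at day 7, against 9.34, 11.9 and 13.6 FPKM in control cells. It exchanges malate or succinate for phosphate and is abundant in white fat and liver. Every NFIA library lay far above every control library, with a ratio of means of 43.9 and a log2 fold change of 5.33 ± 0.23 (SE, adjusted p = 2.6e-11, limma). Slc25a1 (chr16:17925304-17928312, mm9) had 142, 223 and 176 FPKM in NFIA cells and 39.2, 52.6 and 59.2 FPKM in control cells at day 7. This carrier exports citrate to the cytosol, where it is cleaved to acetyl-CoA for lipid synthesis. Its groups did not overlap, and the log2 fold change was 1.82 ± 0.23 (SE, adjusted p = 8.1e-06). Slc25a11, the oxoglutarate/malate carrier of the malate-aspartate shuttle, had 70.5, 96.9 and 90.3 FPKM against 56.3, 72.7 and 77.5 FPKM, groups that overlapped, and did not pass the test (log2 fold change 0.32 ± 0.19, adjusted p = 0.17). It passed with the later header date alone (adjusted p = 0.0026) and with the date as a term (0.000759). The 5 genes listed for citrate use and lipogenesis (Acly, Me1, Acaca, Fasn and Cs) all rose. Fasn, fatty acid synthase, had a log2 fold change of 4.88, Acly, ATP citrate lyase, 2.57, Acaca, acetyl-CoA carboxylase, 2.22, and Me1, cytosolic malic enzyme, 1.82.

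Slc25a34 (chr4:141174739-141179736, mm9), a carrier whose substrate is not settled, had 17.97, 25.5 and 22.4 FPKM in NFIA cells at day 7 and 0.08, 0.08 and 0.09 FPKM in control cells. It was near 0 in every control library of the cells and in no NFIA library at day 7. Its log2 fold change of FPKM + 1 was 4.39 ± 0.10 (SE), and this scale understates a change from so low a level. Slc25a35, whose substrate is not settled either, had 4.59, 6.19 and 6.20 FPKM in NFIA cells against 1.15, 1.90 and 1.92 FPKM in control cells, with a log2 fold change of 1.33 ± 0.15 (SE, adjusted p = 2.02e-06). Slc25a45 had 16.8, 21.6 and 18.4 FPKM in NFIA cells and 2.97, 4.55 and 4.97 FPKM in control cells (log2 fold change 1.96 ± 0.19, adjusted p = 3.9e-07). The unassigned carrier that went down was Slc25a43, at 0.15, 0.17 and 0.17 FPKM in NFIA cells against 1.68, 2.12 and 2.12 FPKM in control cells (log2 fold change -1.35 ± 0.10, adjusted p = 1.8e-08).

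**Figure D2:**
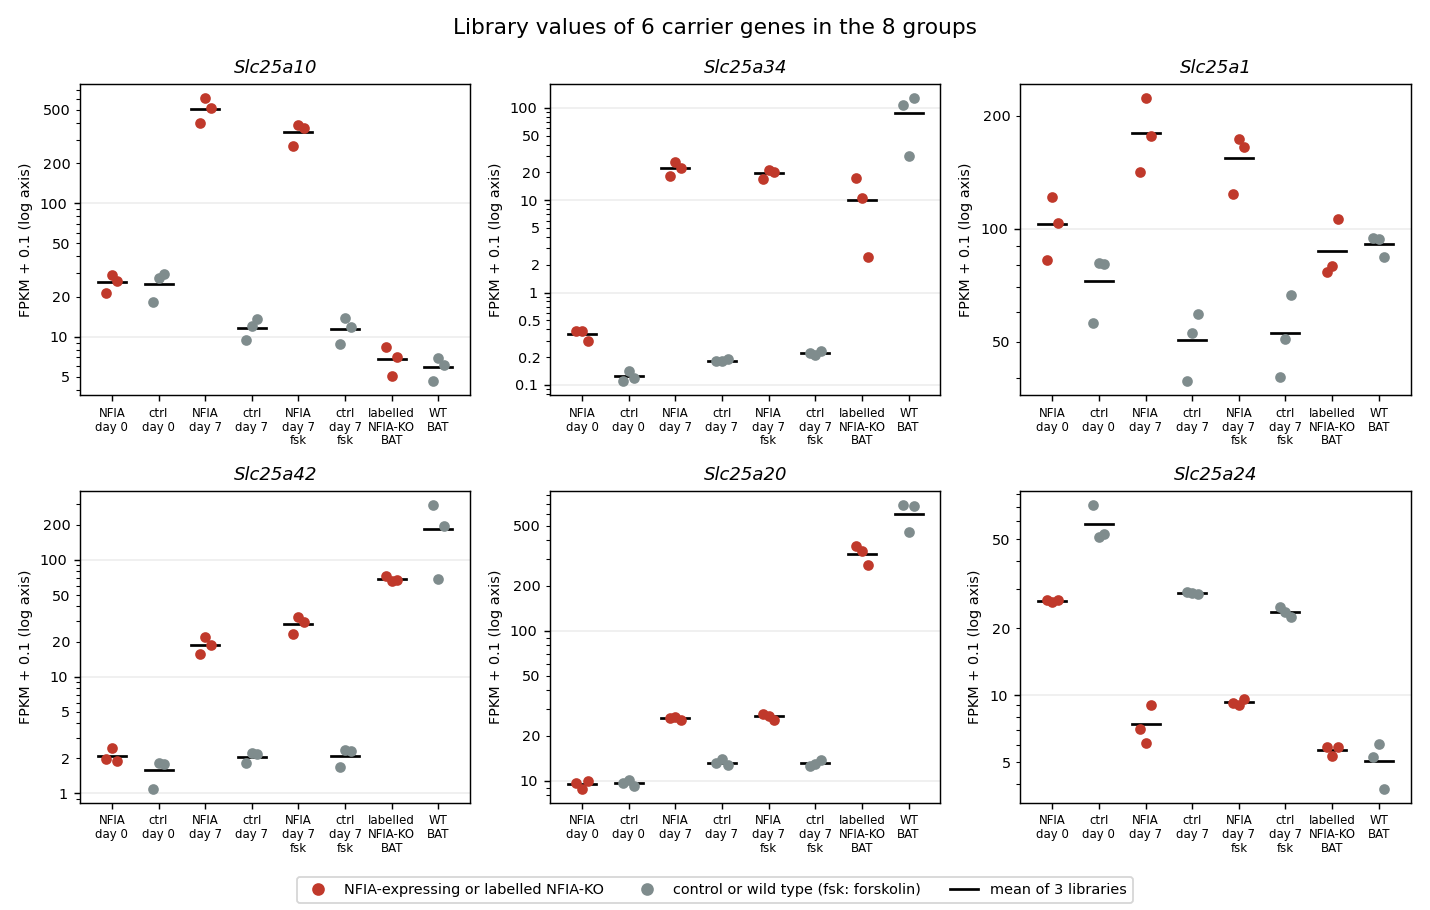
Each point is 1 library's FPKM plus 0.1 on a log axis, for 6 carriers in the 8 groups (fsk: forskolin), with the mean of 3 libraries as a line. The NFIA libraries at day 7 lie above the control libraries for Slc25a10, Slc25a34, Slc25a1, Slc25a42 and Slc25a20 and below them for Slc25a24, and wild-type tissue is high in Slc25a34, Slc25a42 and Slc25a20 and low in Slc25a10.

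Sequences before the starts are shown for Slc25a10 and Slc25a34, which had the highest log2 fold changes between NFIA and control cells at day 7, and for Slc25a25 and Slc25a36, which hold the cAMP motif. Slc25a25 rose with forskolin, whereas the forskolin call of Slc25a36 did not hold in every fit. The windows are the 250 bases before a RefSeq start, from RefSeq on GRCm38.p6, another build than the mm9 of the levels, and they run 5′ to 3′ on the gene's strand. Capitals mark a motif match, which is TGACGTCA, the cAMP response element, in Slc25a25 and Slc25a36, and TGACCT, the nuclear receptor core motif AGGTCA read on the other strand, in Slc25a34. Slc25a10 holds none of the motifs searched.
Slc25a10 (chr11:120491587-120491836, plus strand): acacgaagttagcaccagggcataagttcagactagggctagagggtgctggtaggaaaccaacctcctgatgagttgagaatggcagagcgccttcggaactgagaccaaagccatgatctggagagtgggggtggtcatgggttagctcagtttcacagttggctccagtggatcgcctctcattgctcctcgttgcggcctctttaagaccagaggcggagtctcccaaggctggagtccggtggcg
Slc25a34 (chr4:141623835-141624084, minus strand): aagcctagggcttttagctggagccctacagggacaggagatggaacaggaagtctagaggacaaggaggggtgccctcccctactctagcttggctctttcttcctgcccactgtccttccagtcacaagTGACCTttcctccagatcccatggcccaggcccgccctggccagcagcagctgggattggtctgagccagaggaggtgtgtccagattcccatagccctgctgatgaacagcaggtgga
Slc25a25 (chr2:32424067-32424316, minus strand): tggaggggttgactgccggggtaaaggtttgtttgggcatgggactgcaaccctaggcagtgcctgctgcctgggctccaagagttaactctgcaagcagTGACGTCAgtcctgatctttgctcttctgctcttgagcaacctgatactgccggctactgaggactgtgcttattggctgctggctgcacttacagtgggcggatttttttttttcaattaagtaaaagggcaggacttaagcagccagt
Slc25a36 (chr9:97111042-97111291, minus strand): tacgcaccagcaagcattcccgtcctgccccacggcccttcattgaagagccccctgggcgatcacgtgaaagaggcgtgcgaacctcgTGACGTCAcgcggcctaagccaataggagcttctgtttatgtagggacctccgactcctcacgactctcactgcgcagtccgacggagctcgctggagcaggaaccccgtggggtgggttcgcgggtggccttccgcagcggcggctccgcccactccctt

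Of the 44 carriers, 34 matched at least 1 of the 32851 mouse promoters in that table, with 43 starts among them, and each motif was searched on both strands. The cAMP response element was in 2 of the 43 windows, at 150 bases before 1 of 3 starts of Slc25a25 and 161 bases before a start of Slc25a36, and in 1.55% of all windows. The NFI palindrome TTGGCNNNNNGCCAA was in 0 of the 43 windows and 0.0365% of all, and the shorter NFI motif TTGGCA in 2 of the 43, those of Slc25a5 and Slc25a47, and 12.3% of all. The core motif AGGTCA was in 4 of the 43 windows (Slc25a34, Slc25a39, Slc25a45 and Slc25a47) and 14.0% of all. Its direct repeat AGGNCANAGGNCA, which can contain the core motif, was in 0 of the 43 windows and 0.338% of all. These are matches of letters in short windows and say nothing of binding in these cells.

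In the amino acid class, Slc25a22 (chr7:148615638-148623791, mm9), a glutamate carrier, had 96.9, 126 and 107 FPKM in NFIA cells at day 7 and 16.4, 15.5 and 14.2 FPKM in control cells (log2 fold change 2.75 ± 0.35, adjusted p = 6.7e-06). Slc25a29 (chr12:110064083-110074093, mm9), a carrier of basic amino acids, had 17.6, 26.1 and 21.8 FPKM in NFIA cells and 4.36, 4.98 and 4.27 FPKM in control cells (log2 fold change 2.03 ± 0.16, adjusted p = 4.5e-08). For both genes every NFIA library exceeded every control library. Slc25a38, which supplies glycine for heme synthesis, Slc25a44, a carrier of branched-chain amino acids in brown fat, and Slc25a15, the main ornithine carrier, also rose, with log2 fold changes of 1.04, 1.02 and 0.65. The aspartate/glutamate carriers of the malate-aspartate shuttle were not called higher. Slc25a12, also called aralar, had 74.7, 83.2 and 88.5 FPKM in NFIA cells against 85.05, 107 and 134 FPKM in control cells and did not pass the test (log2 fold change -0.38 ± 0.32, adjusted p = 0.33), except as lower with the later header date alone (-0.48, adjusted p = 0.00562). Slc25a13 was under 0.3 FPKM in all 6 libraries, at 0.08, 0.04 and 0.07 FPKM in NFIA cells and 0.23, 0.24 and 0.23 FPKM in control cells, and its log2 fold change of -0.21 ± 0.06 passed the test (adjusted p = 0.0057) but not after quantile normalization (-0.15, adjusted p = 0.081). Of the 6 shuttle enzymes listed, Gpd1, cytosolic glycerol-3-phosphate dehydrogenase, rose by a log2 fold change of 6.52 and Mdh1, cytosolic malate dehydrogenase, by 1.54, while 3 were lower, among them Got1, cytosolic aspartate transaminase (-0.87), and Gpd2, mitochondrial glycerol-3-phosphate dehydrogenase (-0.44).

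Among the carriers of nucleotides, cofactors and glutathione, Slc25a42 (chr8:72708239-72736204, mm9), which takes coenzyme A into the matrix, had 15.6, 21.8 and 18.7 FPKM in NFIA cells at day 7 and 1.71, 2.13 and 2.06 FPKM in control cells. The groups were well apart, with a ratio of means of 9.51 and a log2 fold change of 2.72 ± 0.16 (SE, adjusted p = 9.2e-10). Slc25a39, needed for glutathione uptake by mitochondria, had 157, 233 and 233 FPKM in NFIA cells against 52.4, 74.2 and 71.3 FPKM in control cells (log2 fold change 1.63 ± 0.27, adjusted p = 9.6e-05). Slc25a33, a pyrimidine nucleotide carrier, had 7.46, 10.3 and 9.37 FPKM against 2.70, 3.65 and 3.77 FPKM (log2 fold change 1.20 ± 0.19, adjusted p = 6.9e-05). Its relative Slc25a36 had 24.5, 17.6 and 19.6 FPKM in NFIA cells and 26.1, 21.4 and 25.6 FPKM in control cells and did not pass the test (log2 fold change -0.24 ± 0.17, adjusted p = 0.23), except as lower with the later header date alone (-0.32, adjusted p = 0.031).

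The carnitine/acylcarnitine carrier Slc25a20 (chr9:108564429-108586972, mm9) had 26.3, 26.7 and 25.3 FPKM in NFIA cells at day 7 and 12.97, 13.8 and 12.6 FPKM in control cells. The libraries of each group were close together, and the ratio of means was 1.99 (log2 fold change 0.94 ± 0.06, SE, adjusted p = 6.1e-09). Of the 5 other genes listed for the carnitine route, 4 rose and 0 fell. These were Crat, carnitine acetyltransferase (log2 fold change 2.88), Cpt2, the inner-membrane carnitine palmitoyltransferase (1.76), Slc22a5, the carnitine transporter of the plasma membrane (0.89), and Cpt1a, the liver form of the outer-membrane enzyme (0.50).

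The carriers of oxidative phosphorylation moved less. Slc25a5 had 377, 454 and 444 FPKM in NFIA cells at day 7 and 215, 248 and 266 FPKM in control cells (log2 fold change 0.81 ± 0.12, adjusted p = 4.97e-05). Slc25a4, the ADP/ATP carrier of muscle and heart, had 177, 241 and 244 FPKM against 190.2, 261 and 258 FPKM and did not pass the test (-0.10 ± 0.20, adjusted p = 0.696). Slc25a5 made up 66.0 ± 1.89% of the sum of both genes in NFIA cells and 50.8 ± 2.15% in control cells (SD, n = 3 each). Slc25a3 had 343, 414 and 408 FPKM in NFIA cells and 325, 381 and 384 FPKM in control cells, overlapping groups that did not pass the test (0.10 ± 0.11, adjusted p = 0.498). The calcium-regulated Mg-ATP/phosphate carriers went different ways. Slc25a24 (chr3:108926067-108971375, mm9) was lower, at 6.93, 5.98 and 8.98 FPKM in NFIA cells against 28.98, 28.6 and 28.3 FPKM in control cells (log2 fold change -1.85 ± 0.12, adjusted p = 4.7e-09). Slc25a25 (chr2:32270007-32312473, mm9, a locus given jointly with Naif1) was higher, at 20.5, 29.2 and 20.7 FPKM against 5.03, 7.90 and 7.34 FPKM (log2 fold change 1.66 ± 0.31, adjusted p = 0.00029). Of 12 genes listed for mitochondrial import and content, 7 rose and 0 fell.

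Of the iron carriers, Slc25a37, mitoferrin 1, fell to 10.3, 12.8 and 12.9 FPKM in NFIA cells at day 7, against 21.6, 24.7 and 23.5 FPKM in control cells (log2 fold change -0.90 ± 0.11, adjusted p = 4.5e-06). Of the relatives of the uncoupling proteins, Slc25a14 was lower (-0.43 ± 0.12, adjusted p = 0.0051) and Slc25a30 higher (0.32 ± 0.07, adjusted p = 0.00096). Ucp2 rose by a log2 fold change of 2.96 and Ucp3 by 0.31. Ucp1 did not pass the test at day 7, at 0.01, 0.05 and 0.13 FPKM in NFIA cells and 0, 0 and 0 FPKM in control cells.

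**Figure D3:**
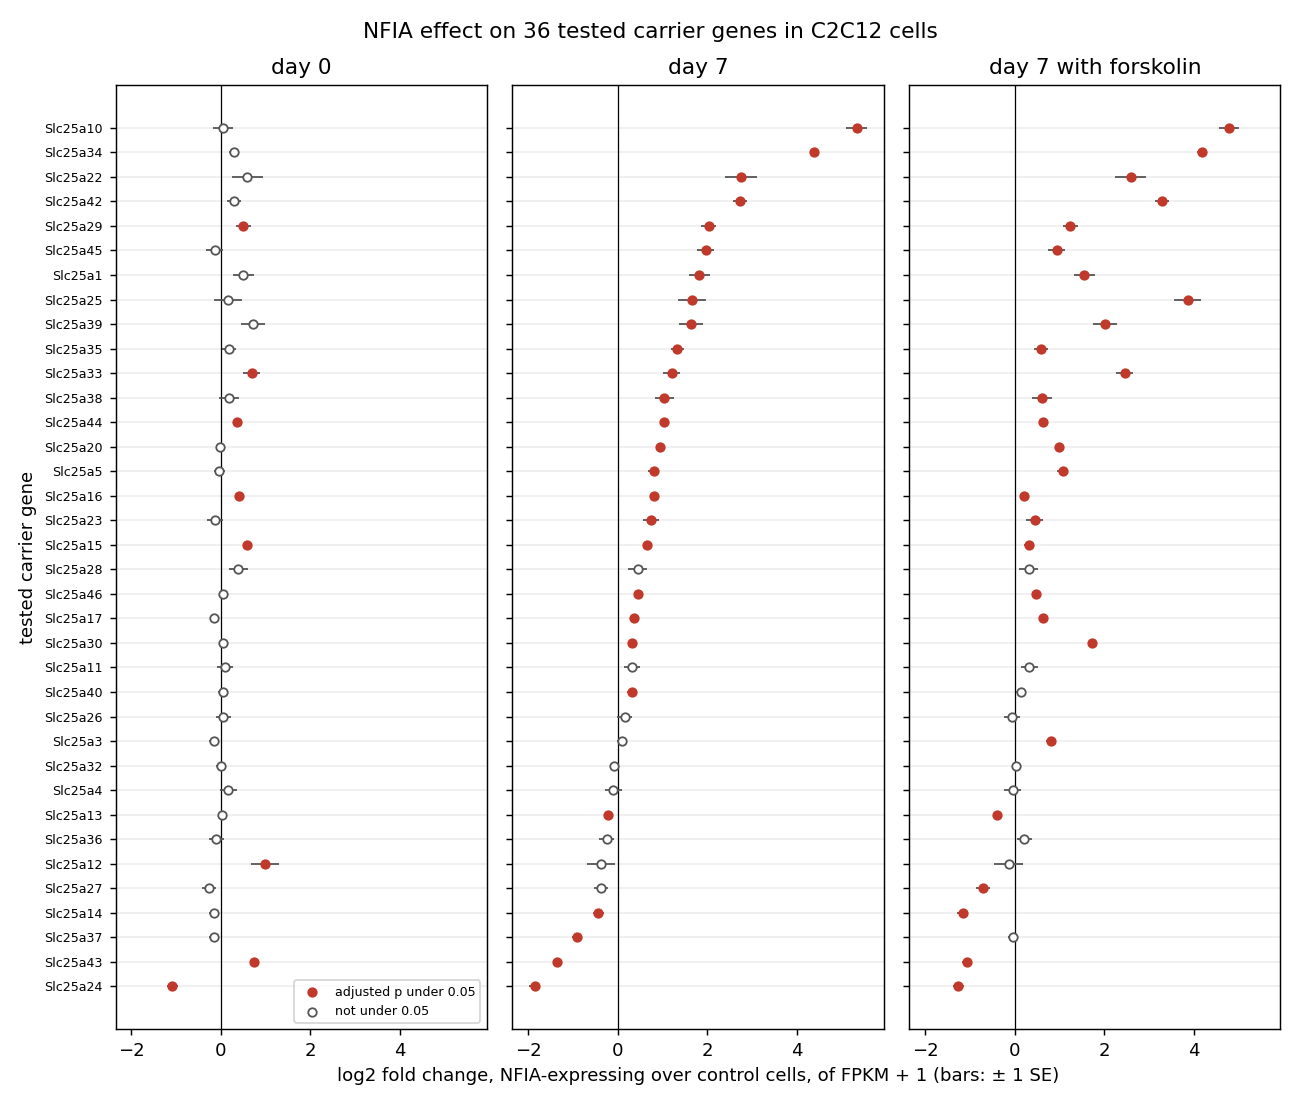
Each point is the log2 fold change of FPKM + 1 of 1 of 36 tested carriers, NFIA over control cells, with bars of ± 1 SE, at day 0, at day 7 and at day 7 with forskolin. At day 0 most carriers lie near 0, and at day 7 Slc25a10 and Slc25a34 lie farthest to the right and Slc25a24 farthest to the left.

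At day 0, 8 of the 37 tested carriers differed, against 21.2% of all genes tested. Of these, 7 were higher in NFIA cells, against 12.1% of all genes tested, and 1 was lower, against 9.07%. With only the later header date, 11 were higher and 2 lower, against 2202 and 1795 of all 13997 genes tested. With the date as a term 12 were higher and 4 lower, against 3021 and 2282 of all 14351 genes tested. The carrier that fell was Slc25a24, at 26.6, 26.02 and 26.7 FPKM in NFIA cells and 70.8, 51.1 and 52.4 FPKM in control cells (log2 fold change -1.09 ± 0.12, adjusted p = 8.8e-06). Slc25a15 had 5.80, 4.71 and 5.54 FPKM in NFIA cells and 3.80, 2.68 and 3.27 FPKM in control cells (0.58 ± 0.09, adjusted p = 0.00028), and its groups did not overlap. Slc25a43 was higher at day 0, at 2.92, 3.86 and 3.95 FPKM against 1.41, 1.83 and 1.93 FPKM (0.75 ± 0.10, adjusted p = 5.3e-05), the opposite direction from day 7. Slc25a16, a carrier linked to coenzyme A, and Slc25a44 rose by 0.40 ± 0.08 and 0.35 ± 0.06. The calls of Slc25a12, Slc25a29 and Slc25a33 were lost in several of the fits that left out 1 library, each of which has fewer libraries to test. Slc25a12 had 103, 101 and 84.5 FPKM in NFIA cells against 27.9, 63.4 and 61.8 FPKM in control cells (0.99 ± 0.32, adjusted p = 0.038), and the adjusted p was 0.0609 to 0.177 without control replicate 1 or without any 1 NFIA replicate, at log2 fold changes of 0.61 to 1.08. Slc25a33 (0.68 ± 0.19, adjusted p = 0.018) had 0.0591 to 0.0888 without control replicate 1 or NFIA replicate 2 or 3, at 0.51 to 0.67. Slc25a29 (0.50 ± 0.16, adjusted p = 0.042) had 0.0626 to 0.158 without control replicate 1 or 3 or any 1 NFIA replicate, at 0.39 to 0.54.

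Slc25a10, Slc25a20 and Slc25a1, all higher in NFIA cells at day 7, did not pass the test at day 0 in the fit of all 18 C2C12 libraries. Slc25a10 had 21.2, 29.1 and 25.99 FPKM in NFIA cells at day 0 and 18.01, 27.6 and 29.2 FPKM in control cells, with a log2 fold change of 0.04 ± 0.23 (SE, adjusted p = 0.93). Slc25a20 had 9.62, 8.78 and 9.86 FPKM against 9.59, 9.97 and 9.11 FPKM (-0.02 ± 0.06, adjusted p = 0.89). Slc25a1 had 82.6, 122 and 104 FPKM in NFIA cells and 56.03, 81.2 and 80.6 FPKM in control cells, groups that did not overlap but did not pass the test (0.50 ± 0.23, adjusted p = 0.17). It passed with the later header date alone (adjusted p = 0.0433) and with the date as a term (0.00122). Slc25a34 was under 0.3 FPKM in all 6 libraries, at 0.28, 0.28 and 0.20 FPKM in NFIA cells and 0.01, 0.04 and 0.02 FPKM in control cells, and did not pass the test (0.29 ± 0.10, adjusted p = 0.061). It passed with a pseudocount of 0.1 FPKM (1.52, adjusted p = 4.5e-06), with both other scalings, with a replicate block, with the later header date alone and with the date as a term (adjusted p = 0.00796 to 0.0452).

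The difference between the NFIA effect at day 7 and that at day 0 was tested as an interaction. It passed for 24 of the 37 carriers, against 45.3% of all genes tested, 19 upward against 19.8% of all genes tested and 5 downward against 25.5%. The largest was Slc25a10 (5.29 ± 0.32, adjusted p = 3.4e-09) on the log2 scale, and Slc25a34 had 4.10 ± 0.15, given with no test. Slc25a42 had 2.43 ± 0.22, and Slc25a20 had 0.96 ± 0.09 (adjusted p = 4.7e-07). Downward, Slc25a12 had -1.37 ± 0.45 (adjusted p = 0.022), which was 0.0576 without control day 7 replicate 3, and Slc25a24 had -0.76 ± 0.17 (adjusted p = 0.0022), which did not pass after quantile normalization (adjusted p = 0.052).

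Seen along the culture, control cells changed in 16 of the 37 carriers between day 7 and day 0, against 48.9% of all genes tested. At day 7, 5 were higher, against 24.9% of all genes tested, and 11 were lower, against 23.9%. Quantile normalization, which moved the median of all genes from 0.019 to -0.105, gave 2 higher and 17 lower. Over all 14351 genes tested it gave 2983 higher and 4541 lower. Slc25a12 had the largest rise, to 85.05, 107 and 134 FPKM at day 7 against 27.9, 63.4 and 61.8 FPKM at day 0 (1.14 ± 0.32, adjusted p = 0.00796). Slc25a10 fell to 9.34, 11.9 and 13.6 FPKM at day 7 against 18.01, 27.6 and 29.2 FPKM at day 0 (-1.02 ± 0.23, adjusted p = 0.0016). Slc25a13, which passed the filter only through day 0, had 0.23, 0.24 and 0.23 FPKM at day 7 and 1.86, 1.60 and 1.73 FPKM at day 0. Without control day 7 replicate 1, only 9 carriers were called, 3 higher and 6 lower, against 3603 and 3056 of all 14309 genes tested.

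In NFIA cells, 26 of the 37 carriers changed over the same days, against 56.9% of all genes tested, 19 higher at day 7 against 27.5% of all genes tested and 7 lower against 29.4%. Slc25a10 had 399, 616 and 516 FPKM at day 7 against 21.2, 29.1 and 25.99 FPKM at day 0 (4.26 ± 0.23, adjusted p = 3.8e-10). Slc25a45 had 16.8, 21.6 and 18.4 FPKM against 2.73, 4.80 and 4.65 FPKM (1.998 ± 0.19, adjusted p = 3.4e-07). Slc25a23, a Mg-ATP/phosphate carrier, was low in both, at 3.27, 3.60 and 2.65 FPKM at day 7 and 0.38, 0.66 and 0.20 FPKM at day 0, and passed the filter only through day 7. Slc25a24 fell to 6.93, 5.98 and 8.98 FPKM at day 7 against 26.6, 26.02 and 26.7 FPKM at day 0 (-1.74 ± 0.12, adjusted p = 1.1e-08). Slc25a37 fell to 10.3, 12.8 and 12.9 FPKM against 24.9, 30.2 and 30.2 FPKM (-1.18 ± 0.11, adjusted p = 2.6e-07). The control and NFIA time courses share their days but not their libraries, and the test of their difference is the interaction given above.

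Forskolin for 4 h at day 7 changed 18 of the 37 tested carriers in NFIA cells, against 32.6% of all genes tested. It raised 9, against 15.7% of all genes tested, and lowered 9, against 16.9%. With the later header date alone, 11 were higher and 10 lower, against 3333 and 3279 of all 13997 genes tested. Slc25a25 rose most, to 230.2, 243 and 348 FPKM in forskolin-treated NFIA cells, against 20.5, 29.2 and 20.7 FPKM in untreated NFIA cells. The treated libraries lay far above the untreated ones, with a log2 fold change of 3.48 ± 0.31 (SE, adjusted p = 6.5e-07), and the carrier moved to the fourth place by level, at 274 ± 64.5 FPKM (SD, n = 3). Slc25a30, a relative of the uncoupling proteins first described in kidney, had 57.9, 56.6 and 51.1 FPKM in treated cells and 21.8, 20.3 and 21.6 FPKM in untreated cells (1.34 ± 0.07, adjusted p = 1.6e-09). Slc25a33 had 15.98, 23.7 and 23.7 FPKM in treated cells against 7.46, 10.3 and 9.37 FPKM in untreated cells (1.13 ± 0.19, adjusted p = 0.00036). For all 3 genes, treated and untreated libraries did not overlap. Slc25a3, the phosphate carrier, had 574, 608 and 607 FPKM in treated cells and 343, 414 and 408 FPKM in untreated cells (0.62 ± 0.11, adjusted p = 0.00055).

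Carriers with smaller rises were less firm. Slc25a42 had 23.2, 32.5 and 29.2 FPKM in forskolin-treated NFIA cells against 15.6, 21.8 and 18.7 FPKM in untreated cells (0.57 ± 0.16, adjusted p = 0.012), with an adjusted p of 0.0557 without untreated replicate 1 and 0.0565 without treated replicate 2. Slc25a36 had 29.1, 31.4 and 27.6 FPKM against 24.5, 17.6 and 19.6 FPKM (0.51 ± 0.17, adjusted p = 0.0298), with 0.0613 to 0.126 without treated replicate 1 or 2 or untreated replicate 2 or 3, and it did not pass after quantile normalization or median-of-ratios scaling (0.151 and 0.0627). Slc25a37 had 14.6, 18.3 and 17.9 FPKM in treated cells and 10.3, 12.8 and 12.9 FPKM in untreated cells (0.46 ± 0.11, adjusted p = 0.0048).

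Several carriers that were high in NFIA cells at day 7 were lower under forskolin. Slc25a45 fell to 7.42, 10.5 and 11.3 FPKM in treated NFIA cells, against 16.8, 21.6 and 18.4 FPKM in untreated cells (-0.91 ± 0.19, adjusted p = 0.00203). Slc25a16 fell to 9.97, 10.8 and 9.94 FPKM, against 15.4, 16.4 and 14.9 FPKM (-0.56 ± 0.08, adjusted p = 6.6e-05). Slc25a29 had 11.8, 15.3 and 15.7 FPKM in treated cells against 17.6, 26.1 and 21.8 FPKM in untreated cells (-0.57 ± 0.16, adjusted p = 0.014), and did not pass without treated replicate 1 or untreated replicate 2 (adjusted p = 0.0682 and 0.077). Slc25a22 had 35.98, 89.8 and 50.9 FPKM in treated cells against 96.9, 126 and 107 FPKM in untreated cells, with a wide spread among the treated libraries (-0.98 ± 0.35, adjusted p = 0.043), and did not pass in 5 of the 6 fits that left out 1 library (adjusted p up to 0.18). Slc25a35 (-0.51 ± 0.15, adjusted p = 0.017) did not pass in 4 of 6 such fits, those without treated replicate 1 or 3 or untreated replicate 2 or 3. Slc25a10 had 267, 388 and 367 FPKM in treated cells against 399, 616 and 516 FPKM in untreated cells, and did not pass the test (-0.58 ± 0.23, adjusted p = 0.066). It passed as lower after quantile normalization (-0.96, adjusted p = 0.000678) and median-of-ratios scaling (0.026), with a replicate block (6.2e-05), with the later header date alone (0.00255) and with the date as a term (4.8e-05). Of the uncoupling proteins outside the symbol rule, Ucp2 and Ucp3 rose with forskolin in NFIA cells, by log2 fold changes of 1.32 and 0.73. Ucp1 had 2.75, 3.95 and 3.06 FPKM in treated cells against 0.01, 0.05 and 0.13 FPKM in untreated cells. Among the C2C12 libraries it reached 1 FPKM only in these treated ones, so it had to be higher there and its values are given with no test.

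In control cells, forskolin changed 1 of the 37 carriers, against 3.97% of all genes tested, with 1 higher against 1.92% of all genes tested and 0 lower against 2.06%. This was again Slc25a25, at 10.6, 25.7 and 19.8 FPKM in treated control cells and 5.03, 7.90 and 7.34 FPKM in untreated control cells (1.28 ± 0.31, adjusted p = 0.029). The groups did not overlap, but the call was lost without any 1 untreated replicate (adjusted p = 0.13, 0.0582 and 0.0713 without replicates 1, 2 and 3) and without treated replicate 2 or 3 (0.16 and 0.11). Quantile normalization and median-of-ratios scaling each gave 1 higher and 2 lower carriers. Of all 14351 genes tested, they gave 305 and 275 higher and 301 and 309 lower. Slc25a30 had 16.6, 14.8 and 16.6 FPKM in treated and 17.7, 16.2 and 16.5 FPKM in untreated control cells, and Slc25a33 had 2.37, 3.24 and 3.35 FPKM in treated and 2.70, 3.65 and 3.77 FPKM in untreated control cells. Their groups overlapped, with log2 fold changes of -0.07 ± 0.07 and -0.13 ± 0.19 (SE).

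For 12 of the 37 carriers, against 20.1% of all genes tested, the interaction test found a forskolin response in NFIA cells that was unlike that in control cells, 6 upward against 10.5% of all genes tested and 6 downward against 9.61%. With the later header date alone, 12 were upward and 8 downward, against 2397 and 2159 of all 13997 genes tested. Quantile normalization gave 4 upward and 7 downward, against 1165 and 1399 of all 14351 genes tested. Slc25a25 had a difference of 2.20 ± 0.44 on the log2 scale (SE, adjusted p = 0.0021), Slc25a30 1.40 ± 0.10 (adjusted p = 1.2e-07) and Slc25a33 1.26 ± 0.27 (adjusted p = 0.0038). Slc25a37 had 0.86 ± 0.16 (adjusted p = 0.0011). Its level in control cells was 15.9, 18.3 and 18.1 FPKM with forskolin and 21.6, 24.7 and 23.5 FPKM without, a difference that did not pass the test (-0.40 ± 0.11, adjusted p = 0.065). It passed as lower after quantile normalization (0.0153) and median-of-ratios scaling (0.0112), with a replicate block (0.000464), with the later header date alone (0.00852) and with the date as a term (0.000297). Slc25a3 had 0.72 ± 0.16 (adjusted p = 0.0044), which did not pass after quantile normalization (adjusted p = 0.06). Downward, Slc25a45 had -1.03 ± 0.27 (adjusted p = 0.014), Slc25a14 -0.73 ± 0.16 (adjusted p = 0.005) and Slc25a16 -0.59 ± 0.11 (adjusted p = 0.0015).

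**Figure D4:**
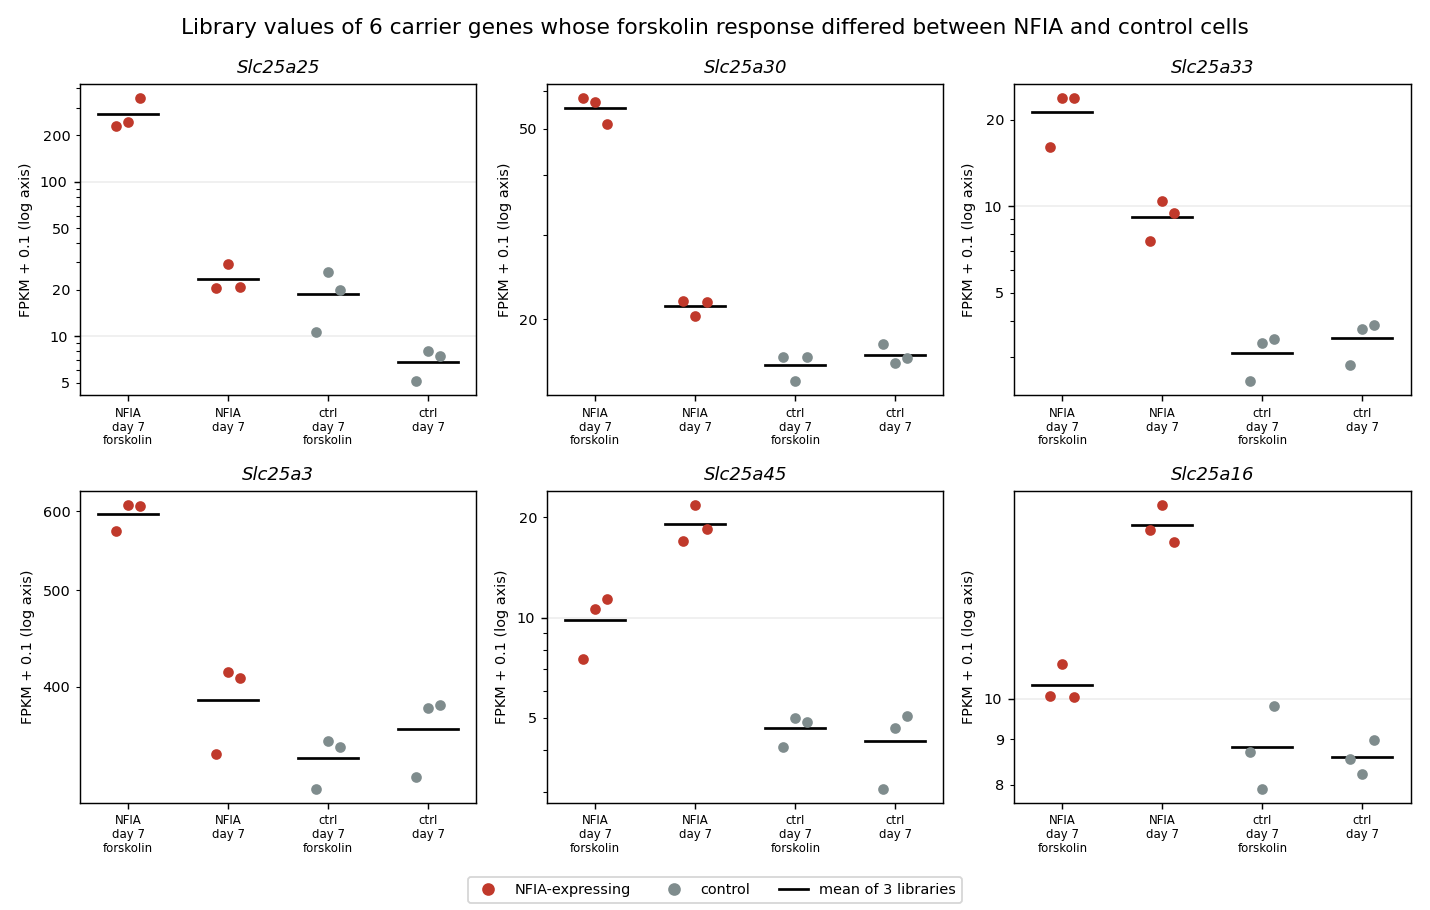
Each point is 1 library's FPKM plus 0.1 on a log axis for 6 carriers at day 7, with and without forskolin, in NFIA and control cells, and each line is the mean of 3 libraries. Treated NFIA libraries lie above untreated ones for Slc25a25, Slc25a30, Slc25a33 and Slc25a3 and below them for Slc25a45 and Slc25a16, while in control cells the groups overlap except for Slc25a25.

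Under forskolin, NFIA and control cells again differed in 28 of the 37 carriers, against 61.6% of all genes tested, 23 higher against 28.7% of all genes tested and 5 lower against 32.9%. Slc25a10 had 267, 388 and 367 FPKM in NFIA cells and 8.67, 13.7 and 11.8 FPKM in control cells (4.79 ± 0.23, adjusted p = 8.1e-11). Slc25a25 had 230.2, 243 and 348 FPKM against 10.6, 25.7 and 19.8 FPKM (3.86 ± 0.31, adjusted p = 3.5e-08). Slc25a3 had 574, 608 and 607 FPKM in NFIA cells against 316, 353 and 348 FPKM in control cells (0.81 ± 0.11, adjusted p = 1.3e-05). Slc25a37 had 14.6, 18.3 and 17.9 FPKM in NFIA cells and 15.9, 18.3 and 18.1 FPKM in control cells, overlapping groups that did not pass the test (-0.05 ± 0.11, adjusted p = 0.75).

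In the brown adipose tissue, 3 of the 37 tested carriers differed between libraries labelled NFIA-KO and wild type, against 7.14% of all genes tested. Of these, 1 was higher in the libraries labelled NFIA-KO, against 3.59% of all genes tested, and 2 were lower, against 3.55%. Nfia RNA was not lower in the libraries labelled NFIA-KO, and all directions below rest on the labels. Slc25a25 had 42.6, 21.9 and 24.2 FPKM in libraries labelled NFIA-KO and 5.97, 3.13 and 8.93 FPKM in wild type, groups that did not overlap, with a log2 fold change of 2.15 ± 0.37 (SE, adjusted p = 0.029, limma). Slc25a20 fell to 365, 338 and 275 FPKM in libraries labelled NFIA-KO, against 685, 452 and 674 FPKM in wild type (-0.87 ± 0.20, adjusted p = 0.046). Slc25a15, the ornithine carrier, fell to 6.44, 6.13 and 5.12 FPKM, against 12.7, 8.81 and 12.1 FPKM (-0.81 ± 0.17, adjusted p = 0.042). None of the 3 calls held in every alternative. With no filter, the adjusted p was 0.08 for Slc25a25, 0.0923 for Slc25a15 and 0.107 for Slc25a20. Slc25a15 and Slc25a20 also did not pass with a replicate block (0.0582 and 0.0604), and Slc25a20 not without the variance trend (0.0528). None of the 3 calls held in every fit that left out 1 of the 6 libraries. The adjusted p of Slc25a25 was 0.128 and 0.0599 without wild-type replicate 1 or 3, and 0.0586 and 0.0758 without NFIA-KO replicate 1 or 2, while those of Slc25a20 (0.079 to 0.181) and Slc25a15 (0.0786 to 0.173) passed only without wild-type replicate 2. The count was 0 without wild-type replicate 1 or 3 or NFIA-KO replicate 1 or 2, 1 without NFIA-KO replicate 3, and 8 without wild-type replicate 2, of which 2 were higher and 6 lower. Quantile normalization gave 1 higher and 5 lower, against 500 and 573 of all 13618 genes tested. Calls over all genes also moved when a library was left out. They were 9 higher and 10 lower of 13386 without wild-type replicate 1, and 580 higher and 781 lower of 13388 without wild-type replicate 2.

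Several carriers with large differences in the tissue did not pass the test, and they were chosen for mention after their values were seen. Slc25a34 had 17.1, 10.5 and 2.35 FPKM in libraries labelled NFIA-KO and 108, 30.1 and 128 FPKM in wild type (-3.10 ± 0.74, adjusted p = 0.051), and passed after quantile normalization (0.0483) and with zeros as missing (0.0481). Slc25a17, the peroxisomal carrier of coenzyme A and related cofactors, had 103, 86.7 and 70.8 FPKM in libraries labelled NFIA-KO against 246, 127 and 211 FPKM in wild type (-1.12 ± 0.26, adjusted p = 0.0501), and had 0.0459 to 0.0498 under the other scalings, a replicate block and zeros as missing. Slc25a32, a carrier of folate or FAD, had 70.9, 31.9 and 26.4 FPKM against 6.92, 19.2 and 8.87 FPKM (1.79 ± 0.46, adjusted p = 0.059). In all 3 genes the groups did not overlap. Slc25a42 had 73.1, 65.95 and 67.3 FPKM in libraries labelled NFIA-KO against 294, 68.03 and 194 FPKM in wild type, with wild-type replicate 2 among the values of the other group (-1.18 ± 0.48, adjusted p = 0.16). The same wild-type library was the lowest of its group for Slc25a34, Slc25a17, Slc25a20 and Slc25a15. Slc25a10 was low in both groups, at 8.27, 5.01 and 6.90 FPKM in libraries labelled NFIA-KO and 4.56, 6.88 and 5.99 FPKM in wild type (0.17 ± 0.21, adjusted p = 0.62).

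Markers of some other cells also moved between the tissue groups, while those of others did not. The 8 skeletal muscle genes summed to 211.9 to 1304 FPKM in libraries labelled NFIA-KO and 45.2 to 116.3 FPKM in wild type, and 5 of the 7 tested were higher, Ckm, muscle creatine kinase, by a log2 fold change of 3.85. The 5 brown adipocyte markers summed to 3840 to 4888 FPKM in libraries labelled NFIA-KO and 6106 to 9443 FPKM in wild type. Of these, 2 were called lower, Ucp1 (-1.73 ± 0.21, adjusted p = 0.018) and Elovl3 (-2.66 ± 0.58, adjusted p = 0.044). The list was split, since Ppargc1a (1.06) and Cidea (0.38) were higher on average and Prdm16 lower (-0.64), none of them called. The lower sum came from Ucp1, at 1571 FPKM on average in libraries labelled NFIA-KO and 5355 FPKM in wild type. The adipocyte sum was 15110 to 18900 FPKM in libraries labelled NFIA-KO and 2935 to 25930 FPKM in wild type, where Fabp4 is listed at 23064, 21229.7 and 0 FPKM. An exact 0 can be a failed estimate, so the lower end of that range is not read as a level. The 5 endothelial genes summed to 977.1 to 985.9 FPKM in libraries labelled NFIA-KO and 1199 to 1632 FPKM in wild type, with 0 of 5 called. Most of that sum was Cd36, at 717.7 FPKM on average in libraries labelled NFIA-KO and 1131 FPKM in wild type. Cd36 also averaged 204 FPKM in NFIA cells at day 7. Kdr and Cdh5 were lower on average (-0.64 and -0.28), while Pecam1 and Tek were higher (0.09 and 0.12). The 5 genes of nerve and glia summed to 8.21 to 11.55 FPKM in libraries labelled NFIA-KO and 15.77 to 28.81 FPKM in wild type, with S100b called lower. The 9 erythroid genes found summed to 4445 to 8457 FPKM in libraries labelled NFIA-KO and 4250 to 5615 FPKM in wild type. These ranges overlapped, and 0 of the 7 tested were called. The 6 immune genes summed to 37.48 to 80.62 FPKM in libraries labelled NFIA-KO and 38.5 to 61.75 FPKM in wild type. Of these 6, 0 were called. No liver gene of the list exceeded 0.45 FPKM. The part of these markers in the carrier differences was not tested. Of 12 genes of mitochondrial import and content, 0 were higher and 3 lower, and Cs, citrate synthase, had a log2 fold change of -0.60.

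**Figure D5:**
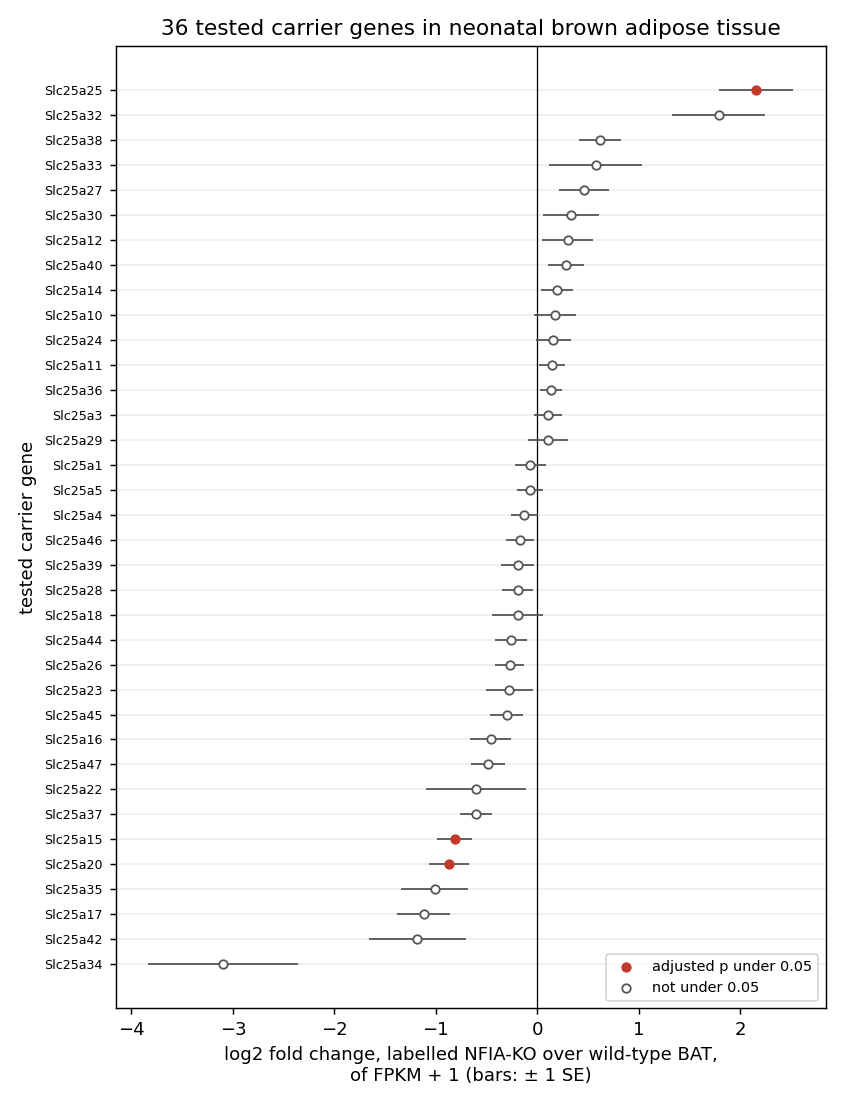
Each point is the log2 fold change of FPKM + 1 of 1 of 36 carriers tested in brown adipose tissue, libraries labelled NFIA-KO over wild type, with bars of ± 1 SE and the called carriers marked. Slc25a25 lies at 2.15 and Slc25a34 at -3.10 with a wide error bar, and 3 of the 36 carriers are marked as called.

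Wild-type brown adipose tissue and NFIA cells at day 7, both untreated, were set side by side in a fit of all 24 libraries, in which 39 carriers were tested. The tissue and the cells differ in cell types and in culture, which cannot be told apart here. Header dates differ only in part, since replicate 1 of the NFIA cells carries the earlier date, as all tissue libraries do. That NFIA library had 399 FPKM of Slc25a10 and 26.3 FPKM of Slc25a20. The part of the date in this comparison was not tested. Of the 39 carriers, 32 differed, against 69.3% of all genes tested. Of these, 21 were higher in the tissue, against 30.4% of all genes tested, and 11 were lower, against 38.9%. Slc25a18 and Slc25a47 passed the filter of this fit only through tissue libraries, with at most 0.17 and 0.96 FPKM in the cells. Their being higher in the tissue is a description, with no test, although the counts include them. Slc25a20 had 685, 452 and 674 FPKM in the tissue and 26.3, 26.7 and 25.3 FPKM in NFIA cells, a ratio of means of 23.1 (log2 fold change 4.45 ± 0.12, adjusted p = 1.8e-16). The SE of this fit is pooled over all groups, although the tissue libraries of Slc25a20 spread more widely than those of the cells. Over the other limma fits, its adjusted p was at most 7.1e-07. Slc25a23 (3.28 ± 0.21) and Slc25a42 (3.02 ± 0.32) were also higher in the tissue. Slc25a34 had 108, 30.1 and 128 FPKM in the tissue against 17.97, 25.5 and 22.4 FPKM in NFIA cells (1.74 ± 0.46, adjusted p = 0.0026). In the other direction, Slc25a10 had 4.56, 6.88 and 5.99 FPKM in the tissue and 399, 616 and 516 FPKM in NFIA cells, the reverse order of Slc25a20 (-6.22 ± 0.23, adjusted p = 1.03e-14). Slc25a29 (-3.40 ± 0.17), Slc25a12 (-3.17 ± 0.31) and Slc25a45 (-2.27 ± 0.18) were also lower in the tissue. Of the ADP/ATP carriers, Slc25a5 made up 72.8 ± 3.23% of its sum with Slc25a4 in the tissue and 66.0 ± 1.89% in NFIA cells (SD, n = 3 each). Of the 5 genes listed for citrate use and lipogenesis, 1 was higher and 4 were lower in the tissue. The higher 1 was Cs, citrate synthase, at 1599 FPKM on average in the tissue and 288.8 FPKM in NFIA cells. Of the 5 genes of the carnitine route, 4 were higher and 1 lower.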

How the data were processed

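Polyadenylated RNA of 18 C2C12 and 6 brown adipose tissue libraries was sequenced from TruSeq stranded libraries, per the labels. The authors deposited FPKM, 1 table per library; the submitters' processing notes name TopHat, Cufflinks and mm9. Program versions, the gene annotation, the use of strand in counting and the treatment of reads that match several genes are not given in the sources used for this work, so Slc25a4 and Slc25a5, close relatives, and the 15 carriers that share a listed locus with another gene are uncertain to that extent. Read counts are not given, so no counting error can be stated.

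Rows of 1 symbol at overlapping loci were summed, which merged 264 of 37305 rows and none of the carriers. With limma 3.58.1 (R 4.3.3), log2(FPKM + 1) was compared between groups by two-sided moderated tests with a variance trend, in a fit of the 18 C2C12 libraries, a fit of the 6 tissue libraries and, for wild-type tissue against NFIA cells, a fit of all 24. Genes with at least 1 FPKM in at least 3 libraries of a fit were tested, p-values were adjusted over all of them by the Benjamini-Hochberg method, and calls were made at an adjusted p under 0.05. Fold changes on this scale understate changes of low genes. Errors of fold changes are SE, and those of levels are SD. The fit was tested on simulated data. Promoters came from RefSeq on GRCm38.p6.

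Named in every main comparison could be Slc25a1, Slc25a3, Slc25a4, Slc25a5, Slc25a10, Slc25a11, Slc25a12, Slc25a13, Slc25a20, Slc25a33, Slc25a34 and Slc25a37, and up to 6 called carriers per direction with the largest changes and at least 5 FPKM on average in the higher group. Other carriers in a comparison (among them Slc25a15, Slc25a30, Slc25a35, Slc25a38, Slc25a39, Slc25a43, Slc25a44 and Slc25a48 in some) were chosen after their values were seen. The values of 1 carrier are not reported here and it is left out of the figures, while the counts over carriers include it. The members, role classes, gene lists and this rule were chosen with earlier results of these data known. Alternatives were a smaller pseudocount, no filter, other scalings, no variance trend, fits of the compared groups alone, a replicate block, the later header date alone or as a term, the highest row of a symbol, zeros as missing, and leaving out each library.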

Additional observations from a re-analysis of the deposited data

Results flagged for a closer look

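The NFIA effect differed between day 7 and day 0 for 12 named carriers, by a test of the difference itself, limma's interaction term. For Slc25a34 and Slc25a13 the difference is a description, with no test. On the log2 scale of FPKM + 1, the effect at day 7 exceeded that at day 0 by 5.29 for Slc25a10, 4.10 for Slc25a34, 2.43 for Slc25a42, 2.16 for Slc25a22, 2.10 for Slc25a45, 1.32 for Slc25a1, 0.96 for Slc25a20 and 0.85 for Slc25a5. The difference was -1.37 for Slc25a12, -0.76 for Slc25a24, -0.75 for Slc25a37 and -0.23 for Slc25a13, where the effect at day 7 was the lower one. Slc25a34 passed the filter on low values only through NFIA cells at day 7, and Slc25a13 only through the libraries at day 0. Slc25a13 is at most 0.36 FPKM in all C2C12 libraries at day 7, and its difference did not pass in 8 of the 12 fits that left out 1 library.

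By the same kind of test, 12 carriers responded to forskolin unequally in NFIA and control cells. It was higher in NFIA cells by 2.20 for Slc25a25, 1.40 for Slc25a30, 1.26 for Slc25a33, 0.86 for Slc25a37, 0.72 for Slc25a3 and 0.59 for Slc25a24. The difference was -1.03 for Slc25a45, -0.79 for Slc25a29, -0.74 for Slc25a35, -0.73 for Slc25a14, -0.59 for Slc25a16 and -0.40 for Slc25a44, where NFIA cells responded with the lower value. Slc25a29 lost its call in 7 of the 12 fits that left out 1 library, Slc25a35 in 6 and Slc25a24 in 5, with adjusted p of at most 0.0712, 0.061 and 0.0693.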

How the results depend on the processing

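The counts of called carriers for NFIA against control cells at day 7, without forskolin (28) and with it (28), for day 7 against day 0 in NFIA cells (26), for forskolin in NFIA cells (18), for the difference of the NFIA effect between days (24) and for wild-type tissue against NFIA cells (32) stayed within 1.5 times under every alternative run. Leaving out 1 library gave 27 to 29, 25 to 27, 25 to 28, 14 to 18, 21 to 25 and 28 to 31 for these. For NFIA against control cells at day 0 (8), the count was 16 with a replicate block, 13 with the later header date alone, 16 with the date as a term and 5 to 9 with 1 library left out, with 5 without control replicate 1 or NFIA replicate 2 or 3. For day 7 against day 0 in control cells (16), it was 10 in a fit of those groups alone and 9 to 15 with 1 library left out. For forskolin in control cells (1), it was 3 with quantile normalization and with median-of-ratios scaling, 0 in a fit of those groups alone, 4 with the block, 4 with the later date alone, 4 with the date as a term and 0 to 1 with 1 library left out. For the difference of the forskolin response between NFIA and control cells (12), it was 20 with the block, with the later date alone and with the date as a term, and 9 to 12 with 1 library left out. For the tissue (3), it was 0 with no filter, 6 with quantile normalization, 5 with zeros as missing and 0 to 8 with 1 library left out. Calls over all genes moved in many of these fits as well. At day 0 they were 2941 higher and 2218 lower of 14351 with the block, against 1735 and 1301 in the main fit. For day 7 against day 0 in control cells, the fit of those groups alone gave 2832 and 2643 of 13232 genes. The main fit gave 3579 and 3434 of 14351. For forskolin in control cells, the block gave 570 and 690 genes, against 275 and 295. For the difference of the forskolin response, the block gave 2554 upward and 2487 downward, against 1511 and 1379. The date as a term gave 2596 and 2553 there. In the tissue, calls over all genes were 20 higher and 20 lower of 24244 with no filter, against 489 and 484 of 13618 in the main fit. With zeros as missing they were 539 higher and 521 lower of 13618. The carrier counts are therefore to be read beside those over all genes. A fit of fewer libraries leaves fewer degrees of freedom, and the cause of the other changes was not tested. The labels number 2 of the 3 cell libraries of a group and name no shared culture, so the block is not taken as a pairing by design. The deviations of same-numbered libraries correlated at 0.081 to 0.429 in the cells, with every pair over 0.1 in 5 of 7 comparisons, and at 0.289 to 0.429 for the libraries of the earlier date. For replicate 2, a library of another number correlated more in several comparisons. This was 0.203 against 0.132 for day 7 against day 0 in control cells, and 0.206 against 0.081 for forskolin in control cells. In the tissue, same-numbered libraries correlated at -0.009 to 0.143. Of the calls of named carriers, 2099 alternatives kept the call and 138 lost it, and 35 alternatives gave a call to a named carrier without one. The kept calls include those with the highest row of a symbol, an alternative that leaves carrier levels unchanged. They also include calls of Slc25a34 and Slc25a13 between groups where the filter fixed the direction. Small values that did not pass the test changed sign in 7 alternatives. For NFIA against control cells, the log2 fold change of Slc25a10 at day 0 was -0.043 with the later date alone and -0.164 to 0.169 with 1 library left out, that of Slc25a20 at day 0 was -0.050 to 0.026, that of Slc25a4 at day 7 was -0.247 to 0.053 and that of Slc25a37 with forskolin was -0.107 to 0.053, each with 1 library left out.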

Other observations

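Mitochondrial transport proteins with symbols outside the Slc25a series were also measured. The pyruvate carrier, whose subunits are listed under the older symbols Brp44l and Brp44, rose in NFIA cells at day 7. Brp44l had 235, 269.7 and 241 FPKM in NFIA cells against 30.5, 38.7 and 41.96 FPKM in control cells, with a log2 fold change of 2.72 ± 0.16 (SE, adjusted p = 1.4e-09, limma). Brp44 had 199, 229 and 237 FPKM in NFIA cells against 54.7, 81.7 and 83.3 FPKM in control cells (1.60 ± 0.26, adjusted p = 7.5e-05). For both genes every NFIA library exceeded every control library. Of the 5 listed genes of the pyruvate carrier and the porins that were found, 2 rose and 1 fell.

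Mcart1, the older symbol of the NAD carrier SLC25A51, had 58.9, 66.6 and 76.6 FPKM in forskolin-treated NFIA cells and 32.9, 39.4 and 36.8 FPKM in untreated NFIA cells (0.87 ± 0.12, adjusted p = 5e-05), against 31.9, 34.96 and 39.9 FPKM in treated and 31.6, 31.7 and 34.4 FPKM in untreated control cells. The treated NFIA libraries lay above all other C2C12 libraries at day 7. Its highest values were in brown adipose tissue, at 463, 391 and 243 FPKM in libraries labelled NFIA-KO and 288, 376 and 263 FPKM in wild type. Mtch2, a mitochondrial carrier homolog of the outer membrane, had 193, 196 and 200.4 FPKM in NFIA cells at day 7 against 99.4, 107 and 141 FPKM in control cells (0.77 ± 0.13, adjusted p = 0.00015).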
